A study of Arabidopsis thaliana with 3 samples.

Results

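This account concerns 10 loci of Arabidopsis thaliana that regulate anthocyanin synthesis: the MYB activators PAP1 (AT1G56650), PAP2 (AT1G66390), MYB113 (AT1G66370) and MYB114 (AT1G66380), the bHLH factors TT8 (AT4G09820), GL3 (AT5G41315) and EGL3 (AT1G63650), the WD40 protein gene TTG1 (AT5G24520), the MYB repressor gene MYBL2 (AT1G71030) and TAS4 (AT3G25795), the precursor of small RNAs directed against MYB activators. They were taken by locus code from an array on which 29030 loci were measured, and all 10 were present, 9 with 1 spot each and EGL3 with 2. The loci were selected by their place in the pathway, but the set was also selected on the log2 ratios of pfd4 over Col-0 on these 3 arrays, which were known when it was drawn up, so their values are described here and not tested. Plants of the mutant pfd4 and of the wild type Col-0, both 2 weeks old, were raised at 22 °C under a day of 16 h and a night of 8 h and then kept at 4 °C for 24 h. RNA of pfd4 was hybridised together with RNA of Col-0 on each of 3 arrays, which the labels call biological replicates. The descriptions of all 3 read replicate 1 of 3, so the array numbers were taken from the sample titles. The pfd4 RNA was labelled with Cy3 on arrays 1 and 2 and with Hyper5 on array 3, and the Col-0 RNA with the other dye each time. The labels do not name the tissue or the pfd4 allele, and both genotypes were cold-treated, so the values compare genotypes in the cold and do not measure the response to cold.

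Anthocyanins are the red to purple flavonoid pigments that build up in leaves and stems of cold-treated or strongly lit plants. Their late synthesis genes are switched on by a complex of a MYB activator, a bHLH factor and the WD40 protein TTG1, abbreviated MBW. MYBL2 and the small single-repeat MYB proteins compete for the bHLH partner and lower the activity of the complex. TAS4 RNA is cut under the guidance of the microRNA miR828 and processed into small interfering RNAs, of which one matches PAP1, PAP2 and MYB113 transcripts, and TAS4 itself is known to be activated by PAP1, so that activator and small RNA form a feedback loop.

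Values are given on the log2 scale as pfd4 over Col-0, so that 1 stands for a doubling in pfd4. The direction is called likely and not certain, since the labels give the dyes but not which genotype was divided by which. It was read from the transcript of the mutated gene, PFD4, whose ratios of -3.08, -2.71 and -2.17 were below 0 on arrays 1, 2 and 3. If Col-0 was the numerator, every sign given here turns. RNA of whole samples does not tell more transcript per cell from more cells that hold the transcript. No signal intensities were used, so it is unknown which spots were above background. In limma over all 29030 loci with Benjamini-Hochberg adjustment, 0% passed at 0.05, with 0.314 the smallest adjusted p of all, while 1372 loci had an unadjusted p below 0.05. PFD4 itself, with a mean of -2.65 ± 0.46 (SD, n = 3), did not pass, with an adjusted p of 0.887 in limma. A locus that does not pass is therefore not shown to be unchanged. None of the 10 regulators and none of the loci named below passed, so higher and lower refer to measured ratios and not to tested changes.

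TAS4 had the largest mean ratio of the 10 loci, and the activators PAP2 and PAP1 followed, although on arrays 1 and 3 PAP2 lay above TAS4. These were the 3 of 10 loci with a mean log2 ratio of at least 1, a level reached by 0.203% of all loci. A ratio above 0 on all 3 arrays was found for 4 of the 10, these same loci and MYB114, against 12.3% of all loci, and a ratio below 0 on all 3 arrays for 0 of the 10, against 12.1% of all loci. Since the choice of loci used these ratios, nothing is read from the counts. The median of the 10 mean ratios was 0.07, against 0.01 over all loci, and the means ran from -0.35 to 1.91.

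**Figure D1:**
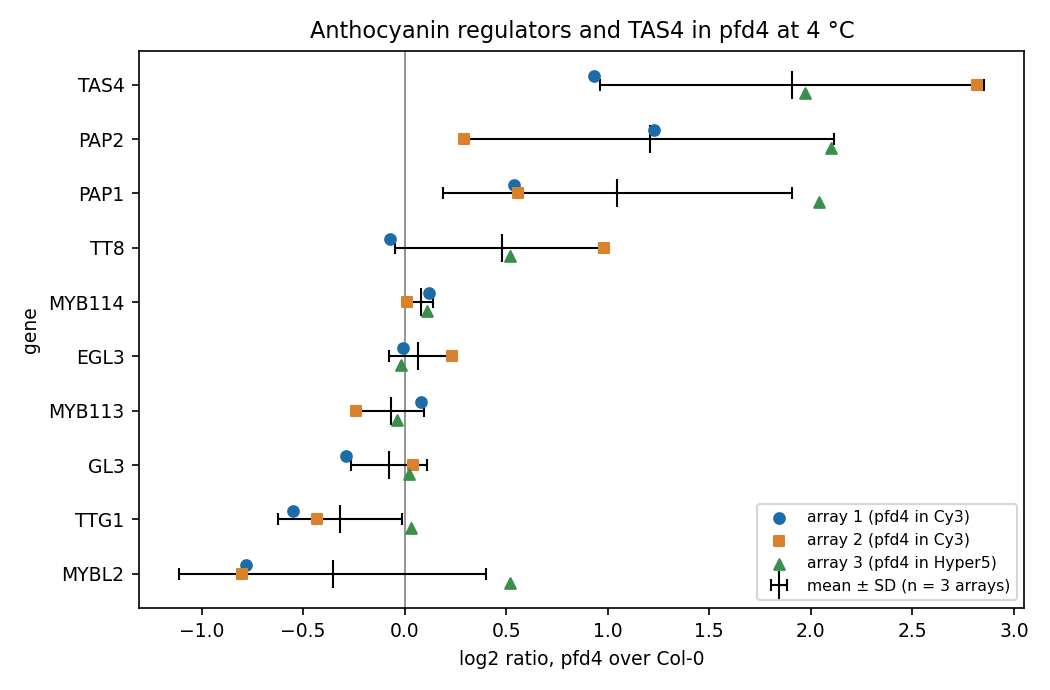
Log2 ratios of pfd4 over Col-0 for the 10 loci, ordered by mean; symbols are the 3 arrays, the vertical tick is the mean and the bar the SD over arrays. TAS4, PAP2, PAP1 and MYB114 lie right of 0 on all 3 arrays, and MYBL2 spreads from -0.80 to 0.52.

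Among the MYB activators, PAP1, also named MYB75 and known as the main activator of anthocyanin genes in seedlings, had log2 ratios of 0.54, 0.56 and 2.04 on arrays 1, 2 and 3. Its mean was 1.05 ± 0.86 (SD, n = 3), a level 2.07-fold higher in pfd4. Arrays 1 and 2 were nearly equal and array 3 was far above them. PAP2, also named MYB90, is a close relative of PAP1 and likewise turns on pigment synthesis when overexpressed. Its ratios were 1.23, 0.29 and 2.1, with a mean of 1.21 ± 0.905 (SD, n = 3) or 2.31-fold. Both activators were highest on array 3, but on array 2 PAP2 was the lower of them and on array 1 the higher. The difference of PAP1 from PAP2 was -0.69, 0.27 and -0.06 on the 3 arrays, so their order was not fixed.

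The other activators did not share these ratios. MYB113 had 0.08, -0.24 and -0.04, with a mean of -0.07 ± 0.16 (SD, n = 3). MYB114 had 0.12, 0.01 and 0.11, with a mean of 0.08 ± 0.06 (SD, n = 3). Both stayed near 0 on every array, within the range that holds 95% of the 757 dark and negative control spots (from -0.24 to 0.45 on array 1, -0.36 to 0.29 on array 2 and -0.31 to 0.33 on array 3). Whether these transcripts were detected at all cannot be read from a ratio near 0.

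MYB113, MYB114 and PAP2 follow each other directly along chromosome 1 in the RefSeq annotation of assembly TAIR10.1. PAP2 exceeded MYB114, the gene next to it, by 1.11, 0.28 and 1.99 on the 3 arrays, a mean difference of 1.13 ± 0.855 (SD, n = 3). It exceeded MYB113 by 1.15, 0.53 and 2.14, a mean difference of 1.27 ± 0.81 (SD, n = 3). The difference was thus above 0 on all 3 arrays for both pairs, and smallest on array 2. The genes on either side of the tandem array were each of mixed sign, opposite on array 1 and alike on arrays 2 and 3. CML23, a calmodulin-like gene next to PAP2, had 0.85, 0.69 and -0.40, and AT1G66360, next to MYB113, had -0.14, 0.19 and -0.16. The sequences of the spots were not used here, so hybridisation of a spot with a related MYB transcript was not tested.

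**Figure D2:**
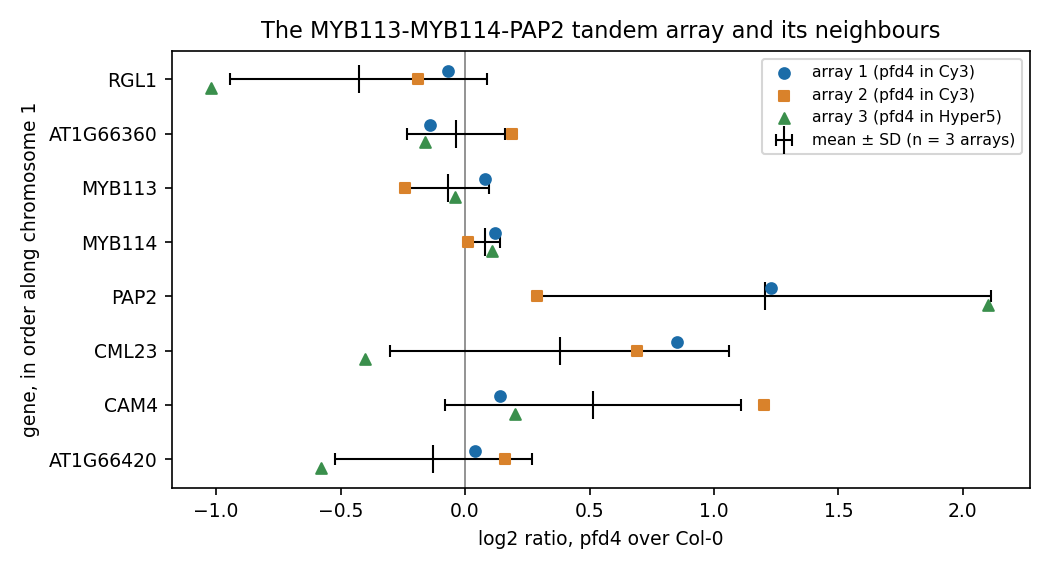
Log2 ratios of pfd4 over Col-0 for PAP2, MYB114, MYB113 and their measured neighbours, in gene order along chromosome 1; symbols are arrays, ticks and bars are mean and SD. PAP2 has a mean of 1.21, while MYB114 and MYB113 lie at 0.08 and -0.07.

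The bHLH partners had smaller mean ratios than PAP1 and PAP2, but on array 2 TT8 lay above both. TT8, which is needed for late anthocyanin and proanthocyanidin genes and is itself a target of the MBW complex, had -0.07, 0.98 and 0.52. Its mean was 0.48 ± 0.53 (SD, n = 3), with array 1 near 0 and the other arrays above it. GL3, better known from trichome formation, had -0.29, 0.04 and 0.02 and a mean of -0.08 ± 0.185 (SD, n = 3). EGL3, which overlaps with GL3 in function and acts in seedling anthocyanin synthesis, had -0.01, 0.235 and -0.02 as the average of its spots, with a mean of 0.07 ± 0.14 (SD, n = 3). GL3 and EGL3 thus stayed close to 0. TT8 exceeded GL3 by 0.22, 0.94 and 0.50 on the 3 arrays, and differed from EGL3 by -0.06, 0.74 and 0.54.

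EGL3 also gives the only view of the error within an array among these loci. The spots of EGL3 read 0.27 and -0.29 on array 1, 0.10 and 0.37 on array 2, and -0.06 and 0.02 on array 3. Over the 4897 loci that carry 2 spots with the same identifier, the spots differed by a median of 0.30, 0.29 and 0.29 on the 3 arrays, and 95% of them by no more than 1.02, 1.07 and 0.97. TAS4 on arrays 2 and 3, PAP1 on array 3 and PAP2 on arrays 1 and 3 exceeded these last values. TAS4 on array 1, PAP1 on arrays 1 and 2 and PAP2 on array 2 did not.

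TTG1, the WD40 scaffold shared by all MBW complexes, had -0.55, -0.43 and 0.03. Its mean was -0.32 ± 0.31 (SD, n = 3), with arrays 1 and 2 below 0 and array 3 at about 0. MYBL2, the repressor that binds the bHLH partner, had -0.78, -0.80 and 0.52. Its mean of -0.35 ± 0.76 (SD, n = 3) hides a change of sign between arrays 1 and 2 on the one side and array 3 on the other. The difference of PAP1 from MYBL2 was far steadier than either ratio: it was 1.32, 1.36 and 1.52, with a mean of 1.40 ± 0.11 (SD, n = 3). The difference of PAP2 from MYBL2 was 2.01, 1.09 and 1.58, with a mean of 1.56 ± 0.46. These pairs were picked after their values were seen, and the differences are a description.

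The change between arrays 1 and 2 and array 3 coincides with the exchange of dyes. The mean of arrays 1 and 2 was 0.55 for PAP1 and 0.76 for PAP2, against 2.04 and 2.1 on array 3. For MYBL2 it was -0.79, against 0.52 on array 3, and for TTG1 -0.49, against 0.03. The averages of TAS4 and TT8 hardly differed between the orientations, with 1.875 against 1.97 for TAS4 and 0.455 against 0.52 for TT8. Arrays 1 and 2, of the same orientation, lay much further apart, at 0.93 and 2.82 for TAS4 and -0.07 and 0.98 for TT8. When both orientations weigh equally, the mean was 1.295 for PAP1, 1.43 for PAP2, 1.92 for TAS4 and -0.135 for MYBL2. With 1 array in the exchanged orientation, the dye and the plants of array 3 cannot be told apart. Over all loci array 1 correlated with array 2 at 0.40 and with array 3 at -0.27, and arrays 2 and 3 at -0.04. Over the 10 regulators these correlations were 0.64, 0.80 and 0.58, a description over loci of the same arrays in which TAS4, PAP1 and PAP2 weigh most. The 10 were chosen with these ratios known, so no agreement between arrays is read from the higher values.

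**Figure D3:**
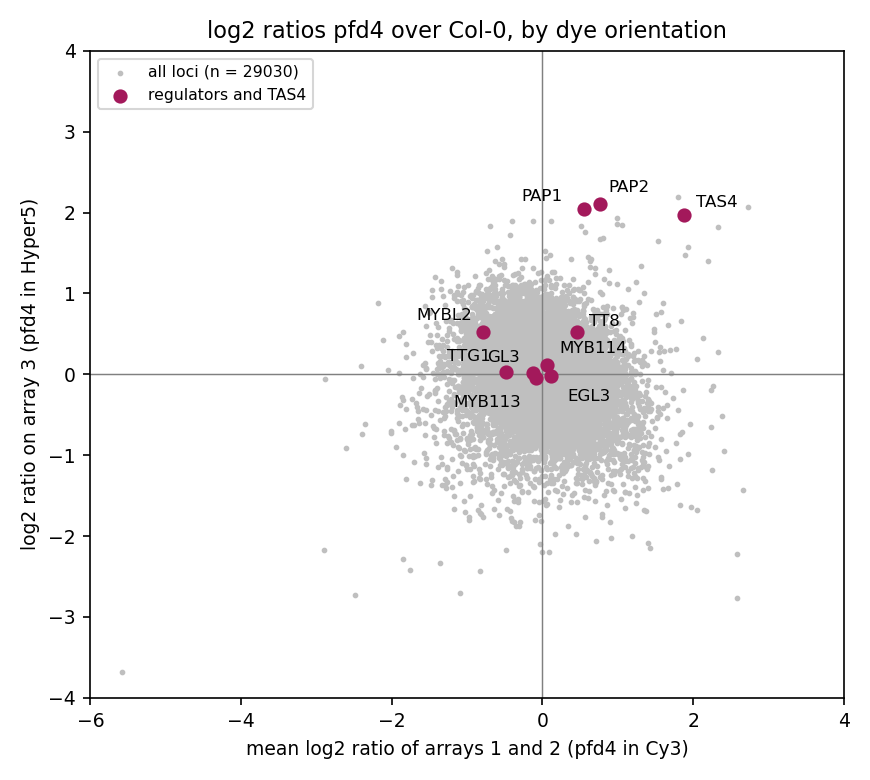
Mean log2 ratio of arrays 1 and 2 (x axis) against the log2 ratio on array 3 (y axis), pfd4 over Col-0; grey points are all 29030 loci and coloured points the 10 regulators. TAS4 lies high on both axes at 1.875 and 1.97, PAP1 and PAP2 are high mainly on array 3, and MYBL2 lies at -0.79 and 0.52.

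On array 3 the 5 highest ratios among the 29030 loci belonged to anthocyanin genes: LDOX at 2.19, PAP2 at 2.1, DFR at 2.07, PAP1 at 2.04 and TAS4 at 1.97. On array 1, 168 loci were higher than PAP2, 438 higher than TAS4 and 1846 higher than PAP1. On array 2, 17 loci were higher than TAS4, while 3268 were higher than PAP1 and 6437 higher than PAP2. TAS4 was therefore near the top on arrays 2 and 3, and PAP1 and PAP2 on array 3 above all. The activators MYB113 and MYB114 were not near the top on array 3, where 16258 and 10017 loci were higher.

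TAS4 had log2 ratios of 0.93, 2.82 and 1.97, with a mean of 1.91 ± 0.95 (SD, n = 3), a level 3.75-fold higher in pfd4. It was above 0 on each array, and lowest on array 1, where it lay within the difference of 1.02 given above for 2 spots of a locus. Only 4 loci had a higher mean, namely DFR at 2.51, AT4G22870, annotated as a leucoanthocyanidin dioxygenase, at 2.16, LDOX at 1.93 and AT2G16367, a defensin-like gene, at 1.93. The spots around TAS4 on the array had medians of -0.12, -0.09 and 0.12, above 0 on array 3 alone and small beside its own ratios. Around the PAP1 spot they were -0.14, 0.12 and 0.165, and around the PAP2 spot -0.185, -0.065 and 0.225. An effect of the place on the array was not tested.

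The locus of miR828, which starts TAS4 processing, did not share the ratio of TAS4. MIR828A (AT4G27765) had -0.01, 0.08 and 0.22, with a mean of 0.10 ± 0.12 (SD, n = 3), inside the range of the control spots on all 3 arrays. TAS4 exceeded it by 0.94, 2.74 and 1.75, a mean difference of 1.81 ± 0.90. The spot reports the precursor transcript and not the mature microRNA. The 7 other TAS loci, whose small RNAs have other targets, had means from -0.17 to 0.44. Of these, TAS1B alone was above 0 on all 3 arrays (0.07, 0.18 and 0.18), and TAS2, the next in size to TAS4, had -0.03, 0.66 and 0.68.

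Genes that make small RNAs had means between -0.19 and 0.33, with single arrays outside the range of the control spots. DCL1, which processes microRNA precursors, had 0.15, 0.61 and 0.21, with a mean of 0.32 ± 0.25 (SD, n = 3). RDR6, which makes the second strand of cut TAS RNA, had -0.43, -0.10 and -0.05. DCL4, which dices that double strand, had -0.33, 0.42 and -0.17. Of the 14 loci of this list, 2 were above 0 and 1 was below 0 on all 3 arrays, against 12.3% and 12.1% of all loci. Of the 14, 0 passed limma's test over all loci. With an array left out the counts moved: 6 were above 0 without replicate 1, while 5 were below 0 without replicate 2 and 3 without replicate 3. Signs agree more easily over fewer arrays, here and in the lists below, and no shares of all loci are given for such counts.

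**Figure D4:**
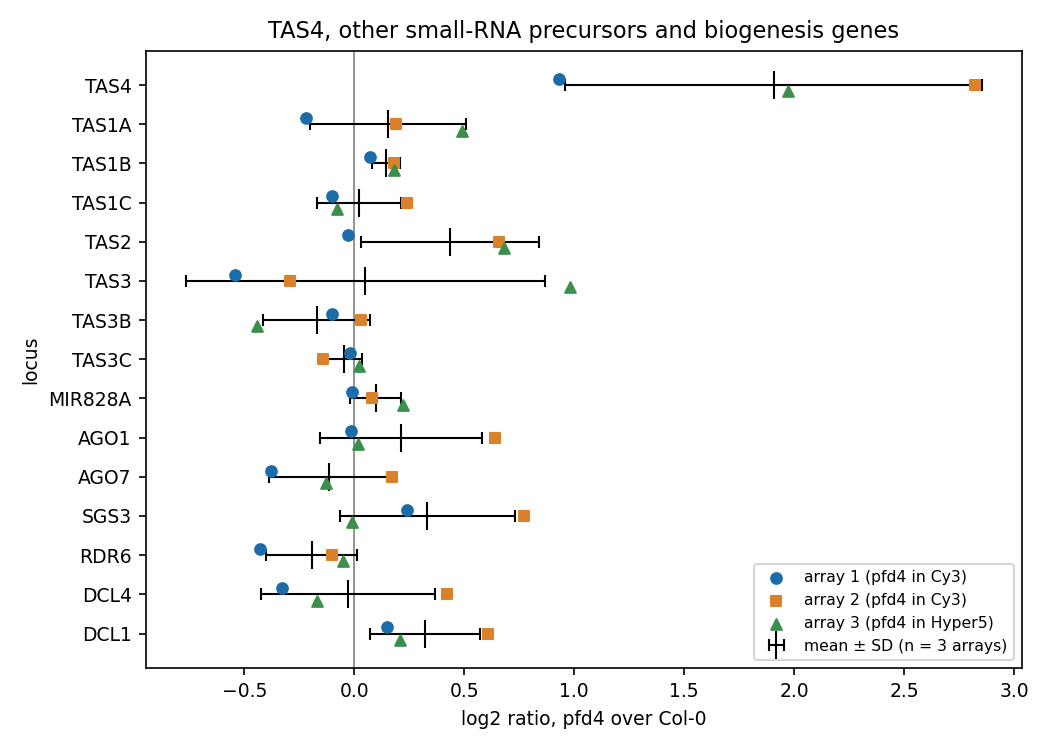
Log2 ratios of pfd4 over Col-0 for TAS4, other TAS loci, MIR828A and genes of small-RNA synthesis; symbols are arrays, ticks and bars are mean and SD. TAS4 has a mean of 1.91, while the 14 other loci have means between -0.19 and 0.44.

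The loci whose ratios lay nearest to TAS4 included several anthocyanin synthesis genes. Likeness was taken as the Euclidean distance over the log2 ratios of the 3 arrays, so it weighs the size of a ratio as well as its pattern, and few loci have ratios this large. The nearest of all loci was UF3GT (AT5G54060), a glycosyltransferase gene of the pathway, at a distance of 0.44, with 1.11, 2.76 and 1.57. LDOX, which makes anthocyanidins, followed at 0.49 with 0.56, 3.05 and 2.19. Next came AT1G03495, annotated as a transferase, at 0.57, AT2G16367 at 0.75 and AT4G22870 at 0.76. Of the 30 loci nearest to TAS4, 10 were among the 12 late anthocyanin genes listed by locus, out of 29030 loci in all. TAS4 and the late genes were chosen with these ratios known, and the distance uses the same ratios, so nothing is read from this count.

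The profiles of PAP1 and PAP2 had other close neighbours. Nearest to PAP1 were AT3G44970, a cytochrome P450 family gene, at 0.51 with 0.81, 0.81 and 1.69, the chloroplast locus ATCG01040 at 0.57, and FLC, the repressor of flowering, at 0.63 with 0.63, 0.65 and 1.43. PAP2 at 0.74 and TT7, the F3'H gene, at 0.75 came next. Nearest to PAP2 were ATCG01040 at 0.48, ATCG00440, a subunit of the chloroplast NADH dehydrogenase, at 0.705, PAP1 at 0.74, AT3G44970 at 0.78 and AT2G27420, a cysteine proteinase gene, at 0.79. Of the 12 late genes, 2 were among the 30 loci nearest to PAP1 and 2 among those nearest to PAP2. The distances rest on 3 arrays, and nothing is read from these counts or from their difference from the count for TAS4.

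The targets of the MBW complex and their activators were ordered differently on the 3 arrays. Of the 12 late anthocyanin genes, 10 were above 0 and 1 was below 0 on all 3 arrays, against 12.3% and 12.1% of all loci, and 0 passed limma's test over all loci. Their medians were 0.565, 1.765 and 1.66 on arrays 1, 2 and 3. Without F3'H, whose place among the late genes is open, 9 of 11 were above 0 and 1 was below 0 on all 3 arrays. DFR, the first enzyme of the late branch, had a mean of 2.51 ± 1.64 (SD, n = 3), and BGLU10, the only late gene below 0 on all arrays, had -0.03, -1.56 and -0.78. On array 2, where DFR reached 4.32 and LDOX 3.05 but UGT78D2 and BGLU10 had -0.94 and -1.56, PAP1 and PAP2 had 0.56 and 0.29. On array 3 the late median lay below PAP1 and PAP2, and on array 1 it lay near PAP1 and below PAP2.

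Early flavonoid genes in seedlings depend on the flavonol MYB factors and not on the MBW complex. The list of 9 loci also holds PAL1 and C4H, general phenylpropanoid genes to which that dependence may not apply. No locus of the 9 had the same sign on all 3 arrays, and 0 passed the test. Of all loci, 12.3% were above 0 and 12.1% below 0 on all 3. Without replicate 2, 6 of the 9 were above 0 on both other arrays. Their medians were 0.22, -1.24 and 0.38. The flavonol activator MYB12 showed the same order of arrays, with 0.50, -1.09 and 0.64. Among 6 regulators of flavonols and proanthocyanidins, 2 were above 0 on all arrays, against 12.3% of all loci, and 0 passed. The 2 were MYB11 at 0.17, 0.10 and 0.71 and TT1 at 0.50, 0.22 and 0.19. Without replicate 2, 4 of the 6 were above 0 and 1 was below. TT2, the MYB partner of TT8 in the seed coat, had -0.05, 0.12 and 0.11.

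MYB proteins that repress anthocyanin or phenylpropanoid genes were above 0 on all 3 arrays at 5 of 10 loci and below at 0. The shares of all loci were 12.3% and 12.1%, and 0 of the 10 passed limma's test. Of the 6 single-repeat MYB genes among them, a division made after the values were seen, 4 were above 0 on all arrays. CPL3 had 0.315, 0.62 and 0.375, with a mean of 0.44 ± 0.16 (SD, n = 3), TCL1 had 0.36, 0.28 and 0.22, and CPC had 0.29, 0.20 and 0.17. ETC2 had 0.31, 0.55 and 0.01. TRY had -0.19, -0.60 and 0.29. TCL1 and CPC lay inside the range of the control spots on all 3 arrays. With the median of the surrounding spots subtracted, 3 of the 10 repressors were above 0 on all arrays in place of 5. MYB4, a repressor of phenylpropanoid genes, had 0.40, 0.06 and 0.55.

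**Figure D5:**
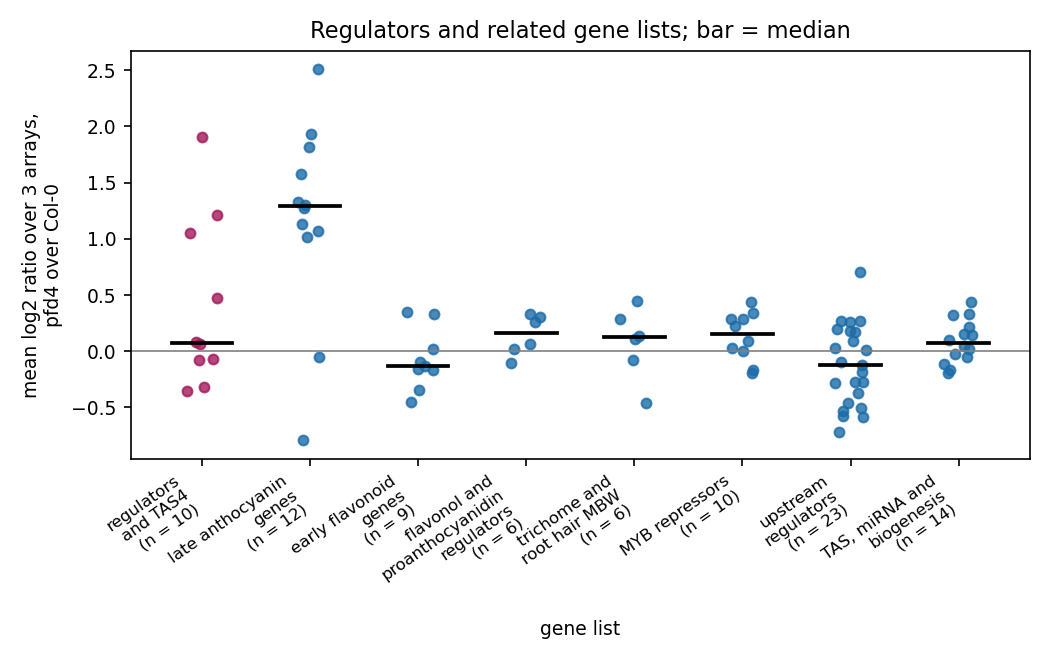
Mean log2 ratio over the 3 arrays, pfd4 over Col-0, for each locus (points) of the regulators with TAS4 and of 7 related gene lists; bars are medians. The median is 1.29 in the late anthocyanin genes and 0.07 in the regulators, and lies between -0.14 and 0.16 in the other lists.

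MBW factors of trichomes and root hairs share TTG1, GL3 and EGL3 with the anthocyanin complex. Of 6 listed loci, 1 was above 0 and 1 below 0 on all arrays, against 12.3% and 12.1% of all loci, and 0 passed. Without replicate 1 it was 2 above and 2 below 0, and without replicate 2 it was 3 above. WER, a root MYB, had 0.01, 0.35 and 0.51. GL2, the homeobox gene downstream of these complexes, had -0.13, -0.81 and -0.45. TTG2, another of their targets, had -0.24, 1.06 and 0.53.

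Of 23 regulators known to act on the MBW genes or proteins from outside, 3 were above 0 and 4 below 0 on all arrays. The shares of all loci were 12.3% and 12.1%, and 0 of the 23 passed limma's test. Without replicate 1 the counts were 5 above and 7 below 0, without replicate 2 they were 6 and 5, and without replicate 3 they were 4 and 10. PIF4, a phytochrome-interacting bHLH factor that represses anthocyanin genes, had -0.95, -0.55 and -0.26, with a mean of -0.59 ± 0.35 (SD, n = 3). LBD37, a repressor of PAP1 and PAP2 under ample nitrogen, had -0.175, -1.075 and -0.34, with a mean of -0.53 ± 0.48. HAT1, a homeobox repressor of the MBW complex, had 0.03, 1.71 and 0.37 and was thus high on array 2 alone. JAZ8, a repressor of jasmonate responses, had 0.43, 0.12 and 0.24. SPL9, which disturbs the MBW complex by binding PAP1, had -0.52, -1.04 and 0.05.

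Markers of other organs and stages are given beside these values, and their part in them was not tested. For comparison, 12.3% of all loci were above 0 and 12.1% below 0 on all 3 arrays. Of 5 trichome and epidermis markers 0 were above 0 and 2 below 0 on all arrays, with medians of -0.13, -0.24 and -0.20. Of 5 root markers 1 was above 0 on all arrays, with medians of 0.01, -0.27 and 0.35. Of 5 flower markers 3 were below 0 on all arrays, with medians of -0.22, -0.27 and -0.09. The 3 seed coat markers, where TT8 is also active, had medians of 0.11, 0.12 and 0.11. The 3 senescence markers had medians of 0.80, 0.34 and -0.075. SWEET15 was above 0 on all arrays at 1.01, 0.60 and 0.83, but the other markers were of mixed sign. SAG13 had 0.80, 0.34 and -0.22, and SAG12 had -0.215, 0.055 and -0.075.

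Ordered by mean, the regulators ran TAS4, PAP2, PAP1, TT8, MYB114, EGL3, MYB113, GL3, TTG1 and MYBL2. For 0 of the 9 pairs of neighbours in this order did the mean difference exceed its own SD over the arrays. On all 3 arrays TAS4, PAP1 and MYBL2 lay outside the range of the control spots, MYBL2 below it on arrays 1 and 2 and above it on array 3. TT8, PAP2 and TTG1 lay outside on 2 arrays, GL3 on array 1 alone, and MYB113, MYB114 and EGL3 on none. All loci spread wider than the control spots, with SDs of 0.36, 0.55 and 0.37 against 0.17, 0.17 and 0.16 on the 3 arrays. The share of all loci outside the range was not counted, so nothing is read from these positions.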

How the data were processed

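For each of 45220 spots the authors deposited a normalized log2 ratio per array, made with limma per the submitters' processing notes. Neither those notes nor the labels give the version, the handling of background or the normalization method, nor the log base, taken as 2 since limma works in log2. Both deposited tables hold the same 45220 sets of values. The 38613 spots with a locus code were averaged per locus and array, giving 29030 loci; 28595 were found in the RefSeq gene table of TAIR10.1, which served for names and gene order. All loci were fitted with limma 3.58.1 in R 4.3.3 (lmFit and eBayes on the mean of 3 ratios against 0, two-sided, Benjamini-Hochberg adjustment, threshold 0.05). The procedure was also run on simulated ratios with independent normal errors and no exchange of dyes, so nothing about these arrays is read from it. Errors are SDs over the 3 arrays, whose number limits the precision. Surrounding spots are those within 2 columns and 2 rows. The loci and lists were chosen with earlier results of these data known. Genes named from a list are the 2 highest and the 2 lowest of those with the same sign on all arrays; any other list member named was chosen after its values were seen. The nearest 5 loci are named for PAP1, PAP2 and TAS4. Alternatives were the median or first spot of a locus, centring, scaling, array weights, a dye term, a robust prior, control spots kept in the fit, array 3 with its sign turned, and leaving out each array. Tables of probe, promoter or protein sequences were not used here.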

Additional observations from a re-analysis of the deposited data

Results flagged for a closer look

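Among the spots that carry no locus code and entered no comparison, those annotated with an anthocyanin or flavonoid 3' enzyme name were read against the dark and negative control spots. On all 3 arrays 2 of them lay above the range that holds 95% of the control spots. All loci spread wider than the control spots, and the share of loci above that range was not counted. A spot annotated as dihydroflavonol 4-reductase had 1.15, 3.19 and 1.27, with a mean log2 ratio of 1.87 ± 1.145 (SD, n = 3). A spot annotated as flavonoid 3'-monooxygenase had 0.50, 0.78 and 0.99, with a mean of 0.757 ± 0.246 (SD, n = 3). Both carry the names of genes of the late list measured by locus, DFR and F3'H, and may report those same transcripts. A spot annotated as anthocyanin-related membrane protein 1 had 0.37, -0.08 and 0.22 and did not stand above the control spots on all arrays.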

How the results depend on the processing

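In limma, 0 of the loci passed an adjusted p of 0.05 in any of the 12 alternatives, while between 476 loci (without replicate 2) and 3878 loci (array 3 with its sign turned) had an unadjusted p below 0.05, and 3724 without replicate 3. Of 100 values of the 10 regulators under alternatives, 95 lay within 1 SD of the value reported. The other 5 were PAP1 (-0.31), PAP2 (-0.19) and TAS4 (0.59) with the sign of array 3 turned, and MYB114 with that sign turned (0.007) or with the median of the surrounding spots subtracted (0.003). Many of the 95 could not have fallen outside. With 1 spot at 9 of the 10 loci, the median and the first spot repeat the reported value. A mean with 1 of 3 arrays left out always lies within 1 SD of the full mean. The count of 95 is therefore no measure of how firm the values are. Subtracting that median and the dye-balanced mean were settings chosen after the data were seen. Leaving out an array gave means from 0.55 to 1.30 for PAP1, 0.76 to 1.665 for PAP2 and 1.45 to 2.395 for TAS4; the lowest PAP1 and PAP2 values were those without replicate 3. MYBL2 then ranged from -0.79 to -0.13. The count of regulators above 0 on all arrays was 4 to 6 with an array left out, 3 with each array centred on its median, where MYB114 dropped out, and 0 with array 3 turned in sign. The count below 0 on all arrays, 0 as reported, was 1 to 2 with an array left out, 2 with that sign turned and 1 with the surrounding median subtracted; fewer arrays make agreement in sign easier. Each array holds both genotypes, so the ratio within it already pairs pfd4 with Col-0, and this ratio was the unit of the fit. Without intensities, dim spots were not filtered.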

Other observations

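In the RefSeq gene order TAS4, PAP1 and MYBL2 each have measured neighbours. PP2AA2, a phosphatase subunit gene that follows TAS4, had -0.01, 0.45 and -0.13, and AT3G25790, before it, had 0.08, 0.23 and -0.23. AT1G56660, which follows PAP1, had 0.50, 1.02 and -0.18, above 0 like PAP1 on arrays 1 and 2 and below 0 on array 3, and the pseudogene AT1G56640, before it, had 0.15, -0.14 and 0.10. LPR2, which follows MYBL2, was below 0 on all 3 arrays with -0.37, -0.53 and -0.60, while MYBL2 was above 0 on array 3.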
